A study of Ciona robusta with 16 samples.

Results

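The genes described here are silent or nearly so in the egg and the early embryo of the ascidian Ciona robusta, appear by the late neurula, and are at least as abundant in the hatched larva as when they appeared. They were chosen from mRNA levels in TPM, a unit that corrects for transcript length and gives every library the same total. The rule asked for a stage mean below 2 TPM in each of the first 4 stages, at least 10 TPM in both late neurula libraries, and a larva mean no lower than the late neurula mean. It found 118 of 18388 genes of the KY21 gene models, and these are called the kept genes below. Another 124 genes met the same conditions up to the late neurula but were lower in the larva than in the late neurula. Together these are the 242 genes with a late neurula onset. A further 39 genes, silent up to the 16-cell embryo and at 10 TPM or more in both initial gastrula libraries, with a larva mean no lower than the gastrula mean, serve as a comparison for earlier onset.

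The study sampled wild-type whole embryos, fertilized in vitro and freed of their chorion, at 8 stages. Hours post fertilization, as labelled, were 0 for the unfertilized egg (unfE), 0.4 for the egg after fertilization (fertE), 2.65 for the 16-cell embryo (cell16) and 4.5 for the initial gastrula (iniG). They were 7.4 for the late neurula (latN), 10.9 for the tailbud embryo at middle stage II (midTII), 13.5 for that at late stage II (latTII) and 17.5 for the larva after hatching. Each stage has 2 libraries of about 150 pooled embryos, so the 16 libraries hold 23.1 to 33.4 M estimated counts each. The replicates of a stage differ in origin, since 1 comes from the batch of embryos that also served for proteomics and the other from a separate time course, and the labels do not say which number is which.

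In ascidians the neural plate folds into a tube during neurulation, while muscle, notochord and epidermal cells take up their final positions. The tailbud embryo then lengthens its tail, and its cells make the contractile, neural and tunic-forming products that the swimming larva uses. Genes that switch on in the neurula and stay on are often products of differentiated cells, whereas many regulators of patterning are expressed for a short time only. The libraries come from whole embryos, so a lower level in fewer cells of a type cannot be told apart from less mRNA per cell.

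From the initial gastrula on, the kept genes went from near silence to a level that was reached mostly by the middle tailbud. Their median stage mean was 0.494 TPM in unfE, 0.481 TPM in fertE, 0.431 TPM in cell16 and 0.815 TPM in iniG. By latN the median was 22.2 TPM, and the tailbud medians were 88.4 TPM (midTII) and 93.3 TPM (latTII), against 90.1 TPM for larvae. The rule fixed the low early levels, the latN floor and the order of latN and larva, and these values are therefore a description. It did not use the midTII and latTII libraries, in which the medians lay close to that of the larva.

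**Figure D1:**
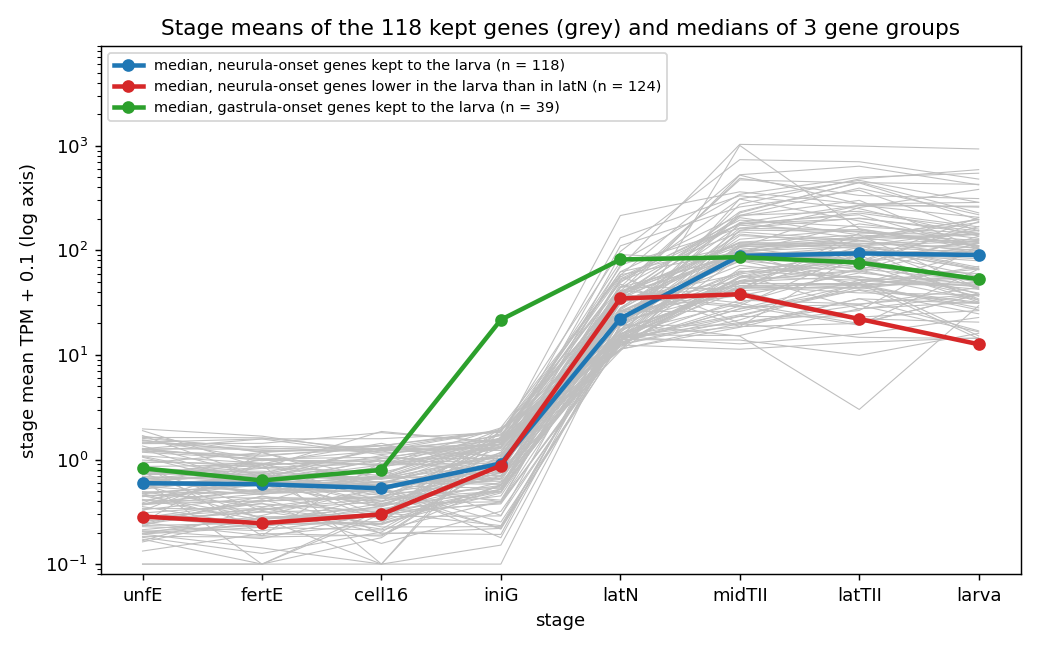
Stage mean TPM plus 0.1 on a log axis for each of the 118 kept genes (grey lines, mean of 2 libraries) across the 8 stages, with the median of the kept genes (blue), of the 124 neurula-onset genes lower in the larva (red) and of the 39 gastrula-onset genes (green). The blue median climbs from 22.2 TPM in latN to 88.4 TPM in midTII and then stays level, while the red one goes from 37.9 TPM in midTII to 12.5 TPM in the larva.

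The kept genes as a whole took up their largest share of the embryo's mRNA in the tailbud, after a rise up to latN that the rule fixed. Summed over all kept genes, they made up 0.0078% and 0.0097% of the TPM of KY21 genes in the unfE libraries and 0.0124% and 0.0131% in the iniG libraries. The share was 0.483% and 0.441% in latN, 2.12% and 1.92% in midTII, 2.02% and 2.18% in latTII, then 1.83% and 1.88% in larvae. All tailbud and larva libraries lie far above both latN libraries in this share, and both larva libraries lie a little below the 4 tailbud libraries. For the larva, the rule required each mean to be no lower than in latN. For a view of the depth, the median kept gene had 539 and 476 estimated counts in the latN libraries, and the lowest had 17.6. In midTII the median was 1903 and 2436 estimated counts.

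Early expression was not strictly absent. In 14 kept genes at least 1 of the 8 libraries before latN reached 2 TPM, and 0 of the 118 were listed at 0 in all 8. The iniG mean was higher than each earlier stage mean in 77 of the 118. In the genes just inside this limit, KY21.Chr3.467 had a highest early mean of 1.92 TPM and KY21.Chr1.464 one of 1.91 TPM. Just outside it were KY21.Chr3.832 with 2.0015 TPM and KY21.Chr2.644 with 2.0073 TPM, with latN means of 58.0 and 244.9 TPM and higher larva means.

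The other limits of the rule also cut through similar genes. At the latN floor, KY21.Chr5.387 and KY21.Chr3.732 were inside with a lower library of 10.1 and 10.2 TPM. The closest match of human RLBP1, a retinaldehyde-binding protein of photoreceptor tissue, was outside with 19.6 and 9.82 TPM in latN, although it stood at 208 and 211 TPM in the larva. KY21.Chr9.625 was also outside, at 9.64 TPM in its lower latN library. At the limit on the larva, KY21.Chr10.589 and KY21.Chr9.14 were inside with a ratio of larva to latN mean of 1.01. KY21.Chr7.644, at a ratio of 0.990, and the match of ITGB4, an integrin beta subunit, at 0.988, were outside.

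Between latN and midTII the levels of most kept genes moved up together. The ratio of midTII to latN mean had a median of 3.06 and ranged from 0.355 to 77.4. It was at least 2 in 86 kept genes, at least 4 in 41 and at least 10 in 11. Both midTII libraries lay above both latN libraries in 101 of the 118 genes and below both in 5. The ratio for the 124 genes that were lower in the larva had a median of 0.937, and for the gastrula-onset genes it was 1.05. The latN level under these ratios was also used to choose the kept genes and to split them from the 124. The ratios and the counts of genes with libraries above or below are therefore a description. Those counts were not made over all genes, and the difference between the groups was not tested.

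The highest stage mean of a kept gene was in midTII for 36 genes, in latTII for 46 and in the larva for 36. The rule itself leaves no kept gene with its highest mean in latN alone. Genes highest in midTII had medians of 26.7 TPM (latN), 114.6 TPM (midTII), 107.8 TPM (latTII) and 67.6 TPM (larva). Those highest in latTII had medians of 22.2, 60.1, 104.6 and 81.2 TPM in the same order of stages. Those highest in the larva had medians of 19.8, 47.5, 63.3 and 113.3 TPM. Being kept thus covered different courses, and only 17 of the 118 genes had stage means that went up at every step from latN to the larva.

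The highest stage was clear of the other late stages in only some of these genes. Both libraries of the highest stage lay above all 4 libraries of the other late stages in 18 of the 36 genes highest in midTII, in 23 of the 46 highest in latTII and in 24 of the 36 highest in the larva. The stage was picked for its highest mean, so some separation is built into these counts, and they were not made over all genes. In 82 kept genes at least 1 tailbud mean was above the larva mean, and in 56 both were. All 4 tailbud libraries were at 10 TPM or more in 116 of the 118 genes. Presence in the tailbud was therefore nearly complete, while the stage of the peak was often within the spread of the libraries.

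**Figure D2:**
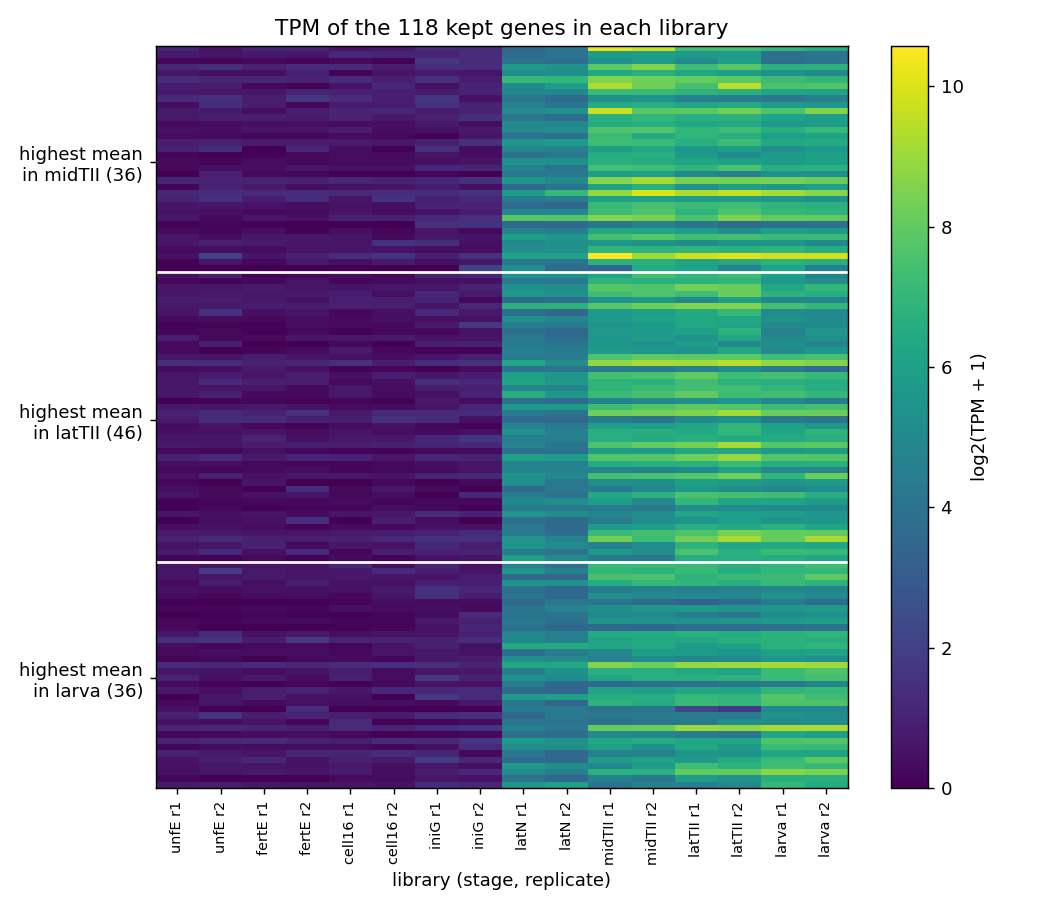
TPM as log2(TPM + 1) of the 118 kept genes (rows, grouped by the stage of their highest mean and ordered within a group by the ratio of larva to midTII) in each of the 16 libraries (columns, r1 and r2 are the replicates). All rows are dark before latN, and 36, 46 and 36 rows have their highest mean in midTII, latTII and the larva.

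The step from midTII to latTII was the one comparison in which neither group of libraries had been used to choose the genes. It was tested with edgeR's quasi-likelihood test on the estimated counts of all 16 libraries, with Benjamini-Hochberg adjustment over the 14643 genes tested and a threshold of 0.05. Of all genes tested, 670 were called higher in latTII (4.58%) and 656 lower (4.48%), together 9.06%. All 118 kept genes were tested, and 11 of them (9.32%) were called higher and 1 (0.847%) was called lower. At an unadjusted p under 0.05 (edgeR) the numbers were 23 higher and 5 lower of the 118, beside 1676 and 1703 of all 14643 genes tested. The median log2 change of the kept genes was 0.20, with a middle 50% of genes from -0.16 to 0.60, against a median of 0.00 over all genes tested. With an iniG library left out, more genes were called higher, among the kept genes and over all genes tested. With a library of any other stage left out, midTII and latTII included, fewer were called higher in both. The median log2 change of the kept genes was then 0.221 without midTII replicate 1 and 0.237 without midTII replicate 2. It was 0.173 and 0.169 without latTII replicate 1 and 2.

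The neurula-onset genes that were lower in the larva had called changes in the downward direction at this step. Of the 124 genes, 0 were called higher and 27 (21.8%) lower. At an unadjusted p under 0.05 in edgeR's quasi-likelihood test, 1 was higher and 47 lower, beside 1676 and 1703 of all 14643 genes tested. Among these 124 genes limma called 0 higher and DESeq2 1. Their median log2 change was -0.70. Fewer of them, and fewer of all genes tested, were called lower when a midTII or latTII library was left out. The median log2 change of these 124 genes was then between -0.733 and -0.62. Among the 39 gastrula-onset genes, 1 was called higher and 3 lower, with a median log2 change of -0.18. Leaving out any single midTII or latTII library gave fewer called lower. The median was then -0.07 without latTII replicate 2 and -0.08 without latTII replicate 1. It was -0.21 and -0.15 without midTII replicate 1 and 2. The difference between the groups was not tested. The midTII and latTII libraries took no part in forming any of them, but each rule fixed the order of the larva and an onset stage. That span contains the step from midTII to latTII, so the called changes are not independent of how the groups were formed.

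**Figure D3:**
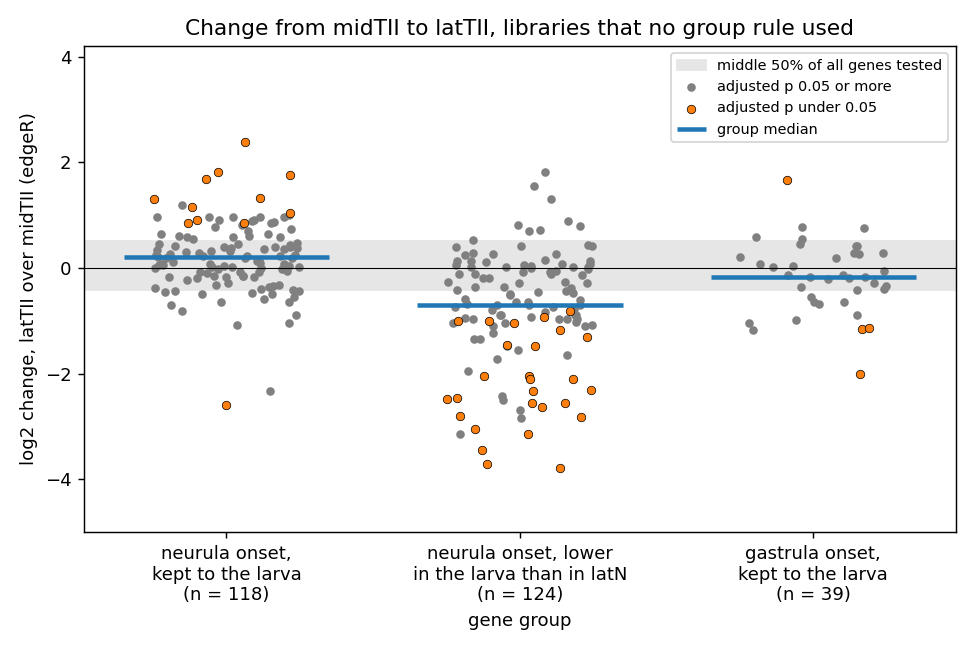
Log2 change from midTII to latTII of each gene (points, orange where the adjusted p is under 0.05) for the 118 kept genes, the 124 neurula-onset genes lower in the larva and the 39 gastrula-onset genes, with the group median (blue line) and the middle 50% of all genes tested (grey band). The kept genes have 11 orange points above 0 and 1 below, while the genes lower in the larva have 27, all below 0.

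The single call in the lower direction was a sharp tailbud peak. KY21.Chr4.953 had 10.6 and 15.4 TPM in latN, 1163 and 848 TPM in midTII, 159 and 163 TPM in latTII, then 124 and 92.4 TPM in larvae. Its midTII libraries were the only ones above 200 TPM, and its midTII mean was 77.4 times that of latN, the highest ratio among the kept genes. From midTII to latTII it fell by 2.60 on the log2 scale (SE 0.267, adjusted p = 8.9e-05, edgeR). This call was kept in all 25 alternative settings that were run. It had no name in the tables used.

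Of the 11 genes called higher, 4 had a midTII mean below their latN mean, out of 13 kept genes with such a dip. The midTII libraries that define the dip are also the baseline of the tested step, so the dip and the call are not independent. KY21.Chr2.100 had 63.5 and 31.4 TPM in latN, 19.7 and 17.5 TPM in midTII, 92.5 and 95.4 TPM in latTII, then 92.9 and 73.5 TPM in larvae. The midTII libraries lay below all the other late ones, and the log2 change to latTII was 2.39 (SE 0.345, adjusted p = 0.000895, edgeR), called in all 25 alternatives. KY21.Chr14.13 had 52.0 and 37.3 TPM in latN, 29.9 and 55.2 TPM in midTII and 155 and 106 TPM in latTII, a log2 change of 1.68 (SE 0.318, adjusted p = 0.00512, edgeR) that was lost without midTII replicate 1 (1.34, adjusted p = 0.0653). KY21.Chr13.383 had 43.5 and 32.1 TPM in latN, 24.4 and 34.6 TPM in midTII and 112 and 78.8 TPM in latTII, a log2 change of 1.75 (SE 0.416, adjusted p = 0.0195, edgeR). That call was lost without midTII replicate 1, midTII replicate 2 or latTII replicate 1 (log2 changes of 1.56, 1.97 and 1.46, edgeR). It was also lost with limma on log2(TPM + 0.1) (1.69, adjusted p = 0.0591). The fourth, KY21.Chr8.790, lies outside the rule for named genes and was picked after its values were seen, with 27.8 and 34.8 TPM in midTII and 72.5 and 60.5 TPM in latTII. Its log2 change was 1.14 (SE 0.294, adjusted p = 0.0276, edgeR), called in 20 of 25 alternatives. The call was lost whenever a midTII or latTII library was left out, with log2 changes from 0.99 to 1.28. In these 4 genes all latTII and larva libraries lay above the latN mean. The latN and midTII libraries overlapped in KY21.Chr14.13 and KY21.Chr13.383, and the step from latN to midTII was not tested.

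The other 7 genes called higher had a midTII mean above the latN mean, although in 1 of them, the match of MEP1B, the libraries of these stages overlapped. KY21.Chr2.183 had 23.8 and 17.7 TPM in latN, 267 and 286 TPM in midTII, 498 and 464 TPM in latTII, then 576 and 606 TPM in larvae. Its stages do not overlap, its larva mean was 28.5 times the latN mean, the highest such ratio among the kept genes, and its log2 change from midTII to latTII was 0.85 (SE 0.175, adjusted p = 0.00888, edgeR). Without midTII replicate 1 or 2 that call was lost, with adjusted p of 0.0665 and 0.0684 in edgeR and a log2 change of 0.85 in each. KY21.Chr4.755 had 49.7 and 35.7 TPM in midTII and 187 and 105 TPM in latTII, a log2 change of 1.82 (SE 0.494, adjusted p = 0.0384, edgeR) that was called in 9 of 25 alternatives. KY21.Chr5.378 and KY21.Chr3.49 were called with log2 changes of 0.85 and 0.92, kept in 9 and 15 of the 25. In all 11 genes both latTII libraries lay above both midTII libraries, and in 8 of the 11 the larva mean was below the latTII mean.

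**Figure D4:**
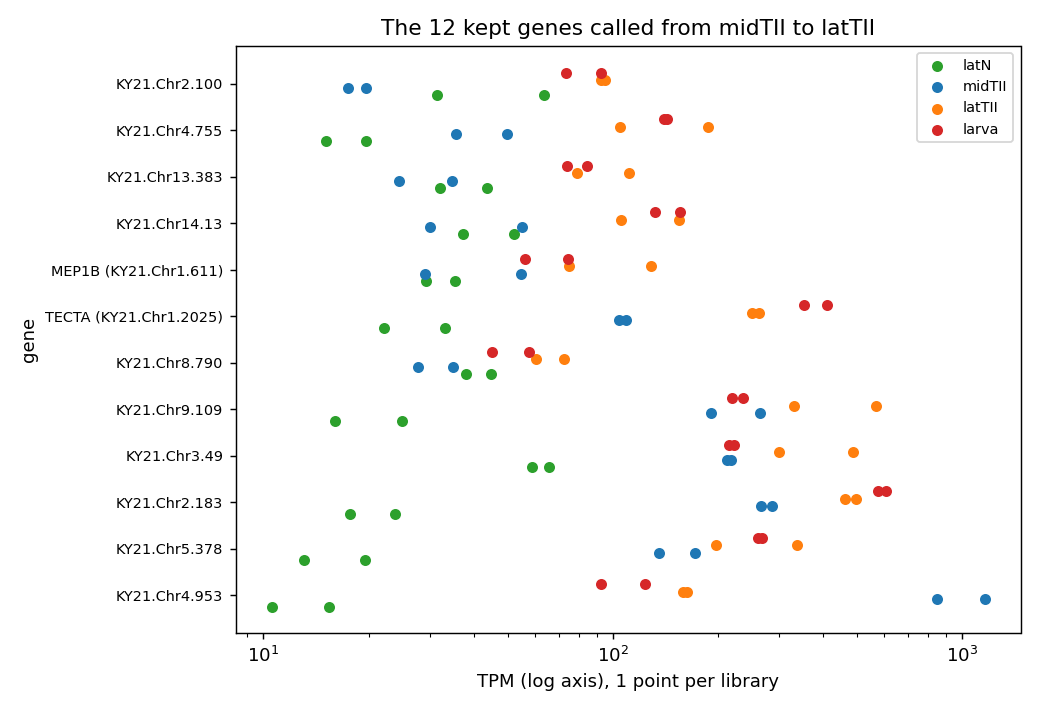
TPM on a log axis, 1 point per library, of the 12 kept genes called from midTII to latTII, with latN in green, midTII in blue, latTII in orange and the larva in red. KY21.Chr4.953 at the foot has midTII points at 848 and 1163 TPM far to the right of all others, and KY21.Chr2.100 at the top has its midTII points, 17.5 and 19.7 TPM, to the left of its latN points.

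Only 16 of the 118 kept genes had a symbol in the study's tables, taken from the closest human or frog match. A symbol says which vertebrate gene is most similar and not that the function is shared. The tables used were partial, so the named genes are a sample of convenience. From midTII to latTII, 2 of the 16 were called, both higher, and these were the matches of an extracellular protein and of a protease.

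TECTA encodes alpha-tectorin, a large protein of the extracellular gel over the hair cells of the vertebrate inner ear. Its Ciona match (KY21.Chr1.2025) had 33.1 and 22.1 TPM in latN, 109 and 104 TPM in midTII, 250.2 and 263 TPM in latTII, then 412 and 353 TPM in larvae. Each stage lay above the one before with no overlap between libraries. The log2 change from midTII to latTII was 1.31 (SE 0.248, adjusted p = 0.00515, edgeR), and it was called in 24 of 25 alternatives, the exception being the fit without midTII replicate 2 (1.23, adjusted p = 0.0639). MEP1B encodes the beta subunit of meprin, a metalloprotease that cuts extracellular proteins. Its match had 29.2 and 35.3 TPM in latN, 54.7 and 29.1 TPM in midTII, 128 and 74.9 TPM in latTII, then 74.4 and 56.3 TPM in larvae, so the latN and midTII libraries overlapped while both latTII libraries were higher. Its log2 change was 1.32 (SE 0.318, adjusted p = 0.0204, edgeR), called in 21 of 25 alternatives. It was 0.90 without midTII replicate 2 (adjusted p = 0.175, edgeR) and 0.86 without latTII replicate 1 (adjusted p = 0.164, edgeR).

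Cell surface and signalling proteins gave 4 of the matches. LGR5 is a receptor for R-spondins, secreted proteins that strengthen Wnt signalling. Its match had 26.7 and 28.8 TPM in latN, 145 and 202 TPM in midTII, 116 and 183 TPM in latTII, then 129 and 118 TPM in larvae, with no tailbud or larva library below 115 TPM. NPR3, a receptor that clears natriuretic peptides, had 41.8 and 34.4 TPM in latN, 74.6 and 99.6 TPM in midTII, 102 and 117 TPM in latTII, then 141 and 169 TPM in larvae. The libraries of NPR3 did not overlap between stages, with the larva on top. LRRN2, a transmembrane protein with leucine-rich repeats, had the lowest latN level of the genes with a symbol, 11.7 and 10.2 TPM, and 120.5 and 130.3 TPM in the larva. PID1, an adaptor with a phosphotyrosine-binding domain, had 38.6 and 36.6 TPM in latN, 323 and 278 TPM in latTII, and 79.4 and 128 TPM in the larva. PID1 thus peaked in the late tailbud, whereas LRRN2 was highest in the larva.

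The match of TTN, titin, the giant spring protein of the muscle sarcomere, stood for the contractile apparatus. It had 48.1 and 39.4 TPM in latN, 161 and 199 TPM in midTII, 149 and 289 TPM in latTII, then 114 and 95.4 TPM in larvae. All larva libraries were below all tailbud libraries and above both latN libraries, and the latTII libraries lay on either side of both midTII libraries. POMK, a kinase that acts on the sugar chain of dystroglycan and is needed for its binding to the matrix, had 42.3 and 38.8 TPM in latN and between 93.8 and 135 TPM in all later libraries. CETN3, a centrin of the centriole, had 96.7 and 47.7 TPM in latN and 165 and 126 TPM in the larva. Its highest library was 257 TPM in latTII, where the other library was at 149.7 TPM.

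Enzymes of metabolism were represented by 2 matches that differed in their course. AKR1C2, an aldo-keto reductase that acts on steroids in humans, had 107 and 114 TPM in latN, 219 and 301 TPM in midTII, 376 and 374 TPM in latTII, then 176 and 129.6 TPM in larvae. Both of its latTII libraries were above all others, but the step from midTII was not called (log2 change 0.59, adjusted p = 0.129, edgeR). SARDH, a mitochondrial enzyme that breaks down sarcosine, had 28.0 and 23.4 TPM in latN, 90.8 and 88.7 TPM in midTII, 105 and 92.5 TPM in latTII, then 114 and 120.0 TPM in larvae.

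Nuclear and scaffold proteins included the kept gene with the highest latN level. BRD8, a bromodomain subunit of the TIP60 histone acetyltransferase complex in humans, had a match at 221 and 209 TPM in latN, 387 and 338 TPM in midTII, 184 and 369 TPM in latTII, then 258 and 259 TPM in larvae. It was the most abundant kept gene in latN, and 1 latTII library lay below both latN libraries. ANKHD1, a protein with ankyrin repeats and an RNA-binding KH domain, had 48.2 and 32.8 TPM in latN and 391 and 587 TPM in midTII. Its midTII mean was 12.1 times that of latN, and its larva libraries stood at 331 and 293 TPM. KCTD15, which limits the formation of the neural crest in zebrafish, had 32.3 and 29.2 TPM in latN, 89.0 and 98.9 TPM in midTII, 77.4 and 81.4 TPM in latTII, then 51.4 and 56.6 TPM in larvae. KCTD15 therefore went through a tailbud peak, as did BTBD19 with means of 132 TPM in latN, 333 TPM in midTII and 137 TPM in the larva. HSPB1, a small heat shock protein, had 35.3 and 17.5 TPM in latN and 36.5 and 37.0 TPM in midTII, so that the upper latN library lay next to both midTII libraries.

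**Figure D5:**
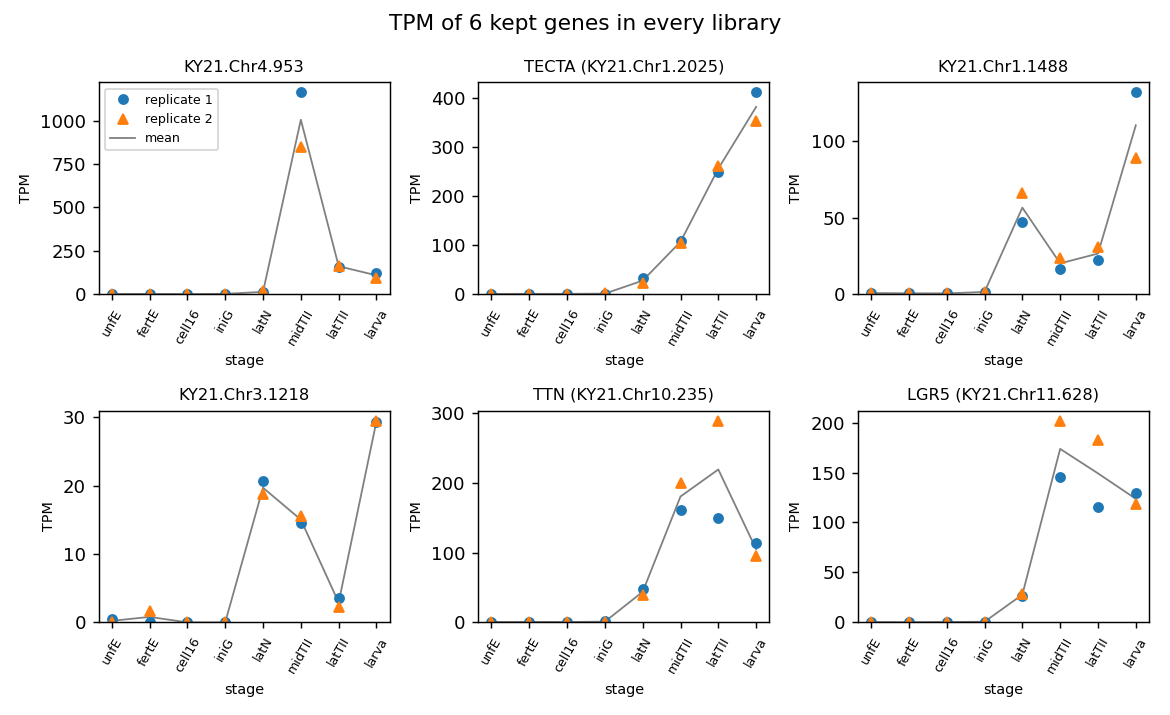
TPM of 6 kept genes in every library (circles for replicate 1, triangles for replicate 2, grey line for the mean) across the 8 stages, on linear axes that start at 0. KY21.Chr4.953 spikes in midTII (1163 and 848 TPM), TECTA climbs to 412 and 353 TPM in the larva, KY21.Chr1.1488 and KY21.Chr3.1218 dip in the tailbud, and TTN and LGR5 are highest in the tailbud.

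Of the 396 genes with a symbol on lists drawn up by function, 6 were kept genes (1.52%), beside 16 of all 3833 KY21 genes with a symbol (0.417%). The lists were chosen with earlier results known, so nothing is read from these shares. The muscle and sarcomere list had 31 genes with TTN as its 1 kept gene, and extracellular matrix and adhesion had 48 with TECTA. Signalling ligands and receptors had 46 with LGR5 and NPR3, secreted proteases, inhibitors, lectins and complement 36 with MEP1B, and oxidoreductases and small molecule metabolism 37 with AKR1C2. The lists for neuron and synapse (37 genes), pigment and photoreceptor (11), transcription factors (34), solute carriers (33), motile cilium (42), and glycosylation and sulfation (42) held 0 kept genes.

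The calls from midTII to latTII within these lists stand beside 4.58% higher and 4.48% lower over all genes tested. At an unadjusted p under 0.05 (edgeR), 1676 of all 14643 genes tested were higher and 1703 lower. For muscle, 1 gene was called higher (3.33%) and 3 lower (10.0%) of the 30 tested, and for extracellular matrix 10 were called higher (20.8%) and 5 lower (10.4%) of 48. Neuron and synapse had 6 higher (16.7%) and 1 lower (2.78%) of 36, and pigment and photoreceptor 1 higher and 0 lower of 11, with 5 higher and 0 lower at an unadjusted p under 0.05 and 0 called lower by DESeq2 and limma. Signalling had 3 higher (6.52%) and 9 lower (19.6%), and proteases and lectins 5 higher (13.9%) and 2 lower (5.56%). Transcription factors had 2 higher (5.88%) and 4 lower (11.8%), and glycosylation 5 higher (11.9%) and 4 lower (9.52%). For oxidoreductases edgeR called 0 higher and 3 lower (5 and 5 at an unadjusted p under 0.05), and DESeq2 and limma each called 2 higher and 4 lower. The motile cilium list had 0 calls by edgeR (0 higher and 3 lower at an unadjusted p under 0.05), 2 lower by DESeq2 and 1 lower by limma. The solute carriers had 0 calls by edgeR (5 higher and 2 lower at an unadjusted p under 0.05), 1 higher by DESeq2 and 0 by limma.

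The 6 kept genes with the highest larva means lacked a symbol, whereas in latN the highest means were those of the BRD8, BTBD19 and AKR1C2 matches. KY21.Chr8.972 had 69.3 and 69.5 TPM in latN, 1522 and 538 TPM in midTII, 898 and 1087 TPM in latTII, then 922 and 942 TPM in larvae, the highest larva mean of the 118. Its midTII libraries spanned the levels of all later libraries. KY21.Chr8.323 had 77.4 and 77.5 TPM in latN, 382 and 304 TPM in midTII, 483 and 517 TPM in latTII, then 560 and 533 TPM in larvae, with each stage clear of the one before. KY21.Chr9.557 had 58.9 and 136 TPM in latN and between 407 and 993 TPM in the later libraries. KY21.Chr14.478 had 78.5 and 37.1 TPM in latN, 461 and 596 TPM in midTII, 549.6 and 725 TPM in latTII, then 462 and 383 TPM in larvae.

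Other genes had levels in the larva that were many times those in latN. KY21.Chr5.798 had 18.9 and 15.2 TPM in latN, 298 and 324 TPM in midTII, 375 and 558 TPM in latTII, then 282 and 293 TPM in larvae. KY21.Chr5.387 had 11.5 and 10.1 TPM in latN and 148 and 249 TPM in the larva, with 179 and 188 TPM already in midTII. KY21.Chr1.464 differed from these, since it had 11.9 and 11.8 TPM in latN, 55.4 and 69.2 TPM in midTII, 51.0 and 88.1 TPM in latTII, then 141 and 236 TPM in larvae. Its larva libraries lay above all tailbud libraries.

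In 5 kept genes both tailbud means were below the latN mean, by very different margins. KY21.Chr1.1488 had 47.1 and 65.9 TPM in latN, 16.3 and 23.9 TPM in midTII, 22.2 and 30.8 TPM in latTII, then 132 and 88.8 TPM in larvae. All of its tailbud libraries lay below both latN libraries. KY21.Chr3.1218 had 20.7 and 18.7 TPM in latN, 14.5 and 15.6 TPM in midTII, 3.56 and 2.26 TPM in latTII, then 29.4 and 29.5 TPM in larvae. The latTII libraries were thus the lowest after the gastrula, though the step from midTII was not called (log2 change -2.33, SE 1.14, adjusted p = 0.252, edgeR). Its latTII mean of 2.91 TPM was the lowest of the kept genes, whose lowest estimated counts in the latTII libraries were 7.2 and 5.0, so this dip lies near the floor. KY21.Chr4.967 had 88.1 and 93.7 TPM in latN, 54.7 and 68.6 TPM in latTII, and 111 and 121 TPM in the larva, while KY21.Chr2.1068 stayed between 8.48 and 19.5 TPM in all late libraries and its midTII libraries lay within the latN range. The remaining one, KY21.Chr6.569, lies outside the rule for named genes and had 38.4 and 32.4 TPM in latN and between 23.3 and 34.0 TPM in the tailbud, so that these overlapped too.

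At the other end stood genes with a tailbud level far above that of the larva. KY21.Chr9.54 had 11.9 and 15.9 TPM in latN, 53.6 and 58.7 TPM in midTII, 50.8 and 52.4 TPM in latTII, then 14.4 and 15.8 TPM in larvae. The latN and larva libraries overlap, with all 4 tailbud libraries above them. KY21.Chr9.815 had 14.4 and 10.4 TPM in latN, 84.1 and 131 TPM in latTII, and 33.7 and 32.6 TPM in the larva. KY21.Chr9.14 had 32.0 and 64.0 TPM in latTII and 13.1 and 15.3 TPM in the larva, and KY21.Chr14.93 had 126 and 154 TPM in latTII and 60.9 and 25.2 TPM in the larva. The ratio of larva to latN mean was 1.09 for KY21.Chr9.54, 1.01 for KY21.Chr9.14 and 1.09 for KY21.Chr14.93, but 2.68 for KY21.Chr9.815.

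The spread between the libraries of a stage limits these descriptions. The median absolute log2 difference between replicates over the kept genes was 0.31 (latN), 0.25 (midTII), 0.35 (latTII) and 0.22 (larva). A difference of over 2-fold was found in 7 genes at each of latN, midTII and latTII and in 5 genes in larvae. In midTII, 3 of the 7 were higher in replicate 1 and 4 in replicate 2.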

How the data were processed

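Read quality was assessed by the authors with FastQC, adapters were removed with Trim Galore, and Salmon quantified the KY21 transcripts. The authors deposited TPM and estimated counts per gene for 16 libraries of paired-end 61 bp reads, and DESeq2-normalized values that were not used here. The deposited TPM included 36 rows with ENSCING identifiers (18.3% to 27.4% of TPM per library). The estimated counts deposited by the authors were rounded and fitted under R 4.3.3 by the robust quasi-likelihood method of edgeR 4.0.16, with 1 term per stage, TMM scaling and filterByExpr. Alternatives used limma 3.58.1 on log2(TPM + 1), DESeq2 1.42.0, other scalings, filters, a replicate block and the omission of single libraries. The test was checked on simulated data. SE is the absolute log2 change over the square root of F.

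Replicates are separate samples in the labels, and p-values measure the spread between these libraries. Members and gene lists were chosen with earlier results of these data known. Named genes were all members with a symbol, the 10 most abundant in latN and in the larva, the 5 with the largest larva to latN ratio, the largest called changes, the 5 lowest and the 5 highest tailbud levels relative to latN and the larva, and the genes next to each limit.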

Additional observations from a re-analysis of the deposited data

How the results depend on the processing

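The number of kept genes called higher from midTII to latTII, 11 as reported, was 4 with limma on log2(TPM + 0.1) and 17 with DESeq2. Over all 14643 genes tested, limma on log2(TPM + 0.1) called 717 higher and DESeq2 1202, against 670 as reported. When a library of any stage other than iniG was left out, fewer kept genes and fewer of all genes were called higher. Without an iniG library more of each were called higher. The causes of these differences were not tested. With RLE factors it was 12, with library totals 8, with limma on log2(TPM + 1) 12, without a filter 10, with only the 4 midTII and latTII libraries 9 and with a log2 change of at least 1 it was 8. The number of kept genes called lower was 1 as reported, beside 656 over all genes tested. It was 2 with no filter (624 over all genes), with at least 50 counts in 2 libraries (686) and with only the 4 libraries (395). With DESeq2 it was also 2 (983 over all genes), and with limma on log2(TPM + 1) it was 4 (1019). The median log2 change, 0.20 as reported, was 0.24 with RLE factors and with DESeq2, 0.128 with library totals, 0.13 and 0.131 with limma on log2(TPM + 1) and log2(TPM + 0.1), and 0.169 to 0.237 with a library left out. Of the 12 called genes, none turned its direction in any of the 25 alternatives.

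Same-numbered libraries deviated together (r over 0.1) in 5 of 28 pairs of stages: r was 0.564, 0.562 and 0.608 among unfE, fertE and cell16, 0.481 between iniG and latN and 0.173 between latTII and larva. It was 0.012 between midTII and latTII, the stages tested, so the numbers were not taken to pair samples there. With the replicate block 10 kept genes were called higher and 2 lower, with a median log2 change of 0.197.

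The share of called genes over the whole table that was higher was 50.5%, against 41.9% with library totals and 65.0% with only the 4 libraries. The rule itself gave 66 genes with early means below 1 TPM, 219 with early means below 5 TPM, 59 with at least 20 TPM in latN, 130 (102 of them among the 118) on TPM rescaled to KY21 genes, and 110 to 154 with a library left out. Only 2 libraries per stage limit each statement on a single stage.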

Other observations

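Some kept genes carry identifiers with nearly consecutive numbers. They are the matches of LRRN2 (KY21.Chr1.1592) and ANKHD1 (KY21.Chr1.1594), KY21.Chr5.387 with KY21.Chr5.389, KY21.Chr5.797, KY21.Chr5.798 and KY21.Chr5.801, and KY21.Chr7.212 with KY21.Chr7.215. These were picked after their values were seen, and no gene positions were used. KY21.Chr5.797 had 28.3 and 25.4 TPM in latN, 116 and 139 TPM in midTII and 159 and 158 TPM in latTII. KY21.Chr5.801 had 20.4 and 21.8 TPM in latN, 62.7 and 63.9 TPM in midTII and 56.7 and 53.4 TPM in latTII, so the levels of KY21.Chr5.797, KY21.Chr5.798 and KY21.Chr5.801 diverged after latN. Whether reads are shared between similar copies was not tested.

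The libraries of a stage disagreed widely in a few genes, of which KY21.UAContig5.28 and KY21.Chr1.170 lie outside the rule for naming and were singled out after their values were seen. KY21.UAContig5.28 had 10.0 and 86.4 TPM in midTII and 66.9 and 26.8 TPM in latTII, the widest replicate gap of the kept genes in midTII (3.11 on the log2 scale). KY21.Chr1.170 had 624 and 318 TPM in midTII and 172 and 710.3 TPM in latTII. KY21.Chr8.1303 had 811 and 236 TPM in midTII. KY21.Chr1.1810 had 322 and 145 TPM in midTII and 271 and 585 TPM in the larva. The higher library was replicate 1 in midTII for KY21.Chr8.1303 and KY21.Chr1.1810 and replicate 2 for KY21.UAContig5.28.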
